A study of Mus musculus with 6 samples.

Results

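Desmosomes are the spot-like junctions that rivet neighbouring keratinocytes together and anchor their keratin filaments. The genes described here are 10 that encode their core: the desmosomal cadherins Dsg1a, Dsg2, Dsg3, Dsc1, Dsc2 and Dsc3, and the plaque proteins Dsp, Pkp1, Pkp3 and Jup. They were chosen by symbol from the 55416 genes of the count table, all 10 were found, and all 10 passed the filter on low counts that left 17659 genes to test.

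The data are RNA counts from primary keratinocytes of Cebpb knockout pups (3 libraries, numbered 4 to 6) and of wild type pups (3 libraries, numbered 1 to 3). Cebpb is the gene of C/EBPβ, a transcription factor with a leucine zipper that acts in differentiating epidermis. The pups were 1 to 2 days old and of a C57BL/6J:129 hybrid background. Both genotypes were plated with 10 ng/mL human EGF and then kept in serum-free medium with 5 ng/mL human EGF, 50 ng/mL bovine pituitary extract and 0.05 mM calcium, and both were irradiated with UVB at 10 mJ/cm2 (lamp of 312 nm) and collected after 8 h. Treatment began 5 days after plating. No library comes from cells without UVB, so the values compare genotypes after UVB and not UVB with its absence. The labels do not describe the knockout allele. Nor do they say that replicates are separate animals or dishes, so the p-values reflect a spread between libraries that may be technical. Calcium this low also limits the model, since desmosomal cadherins need extracellular calcium to adhere.

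In a desmosome, desmogleins (Dsg) and desmocollins (Dsc) of adjoining cells bind each other outside the cell. Inside, plakoglobin (Jup) and the plakophilins (Pkp) hold the cadherin tails, and desmoplakin (Dsp) ties them to keratin filaments. In epidermis the isoforms change with the layer. Dsg3 and Dsc3 are strongest in the basal and lower layers, Dsg1 and Dsc1 become prominent as cells differentiate and move up, and Dsg2 and Dsc2 are the widespread isoforms of simple epithelia, with low amounts of Dsg2 in the basal epidermis. Autoantibodies against Dsg1 and Dsg3 cause the blistering diseases pemphigus foliaceus and pemphigus vulgaris in humans.

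Cebpb itself had 78, 109 and 78 counts in knockout libraries 4, 5 and 6, and 18184, 17628 and 12036 counts in wild type libraries 1, 2 and 3. Library totals were 81256192 to 92987497 counts in knockout and 107757415 to 122797031 counts in wild type cells, so that 3 counts equal at most 0.0369 CPM (counts scaled by library size). Keratinocyte-defining genes (Krt5, Krt14, Trp63, Cdh1, Itga6 and Sfn) were present in every library, at a summed 22063 to 23137 CPM in knockout and 37543 to 42452 CPM in wild type cells. The genotypes also differed in other ways, with no overlap. Y-linked transcripts summed to 0.101 to 0.158 CPM in knockout and 60.7 to 68.1 CPM in wild type cells, and mitochondrial genes took 1.79% to 2.17% of knockout and 1.47% to 1.64% of wild type counts. The 6 melanocyte markers summed to 597 to 676 CPM in knockout and 680 to 769 CPM in wild type cells. Of the other cell types checked, 6 fibroblast markers summed to 4.01 to 4.44 CPM in knockout and 4.82 to 6.37 CPM in wild type cells (Lum was at 0 throughout). Most of the wild type fibroblast sum was Pdgfra (mean 3.17 CPM, against 1.67 CPM in knockout cells). Col1a1 went the other way, at 1.35 CPM in knockout and 0.959 CPM in wild type cells. The 6 immune markers summed to 0.357 to 0.477 CPM in knockout and 0.946 to 1.81 CPM in wild type cells (Cd3e was at 0). Most of the wild type sum was Lyz2 (mean 1.13 CPM, against 0.0439 CPM in knockout cells). Cd74 went the other way, at 0.379 CPM in knockout and 0.172 CPM in wild type cells. The 5 endothelial markers summed to 4.46 to 5.32 CPM in knockout and 6.43 to 6.92 CPM in wild type cells (Cdh5 and Emcn were at 0). Nearly all of that was Kdr (mean 4.77 CPM in knockout and 6.36 CPM in wild type cells). The 5 Merkel cell markers summed to 2.34 to 2.54 CPM in knockout and 1.09 to 1.59 CPM in wild type cells. The higher Merkel sum came from Piezo2 alone (mean 1.72 CPM in knockout and 0.209 CPM in wild type cells). The means of Krt20, Atoh1, Sox2 and Isl1 were lower in knockout cells. The 5 cardiac muscle markers summed to 131 to 152 CPM in knockout and 82.8 to 103 CPM in wild type cells, nearly all of it Tnnt2, and Myh6 was at 0. The Y-linked difference followed genotype in every library, so an effect of the sex of the pups cannot be told apart from that of genotype. The part of the other differences in the results below was not tested.

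Desmosome transcripts were lower in knockout cells, with 1 exception. Of the 10 genes, 9 fell and Dsg2 rose (quasi-likelihood test of edgeR, Benjamini-Hochberg adjusted over all 17659 genes). Genotype separated a large part of all genes: 48.6% of those tested were called, 23.7% as lower and 24.8% as higher. The median log2 fold change (knockout over wild type) of the 10 was -0.70, beside 0.01 for all genes tested. In each of the 10 genes the 3 knockout libraries lay entirely to one side of the 3 wild type libraries, as they did in 56.4% of all genes (27.6% with knockout lower and 28.7% with knockout higher). With libraries scaled by their totals in place of TMM (the trimmed mean of M values), the median of all genes moves up by 0.20 and 6478 genes are called higher and 2452 lower (36.7% and 13.9%), beside 4387 higher and 4192 lower with TMM. Under that scaling too, 9 of the 10 were called lower and Dsg2 higher. Together the 10 genes took 0.627% to 0.641% of all counts in knockout and 0.864% to 0.900% in wild type libraries. RNA from whole dishes cannot tell fewer cells of a type from less RNA per cell.

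**Figure D1:**
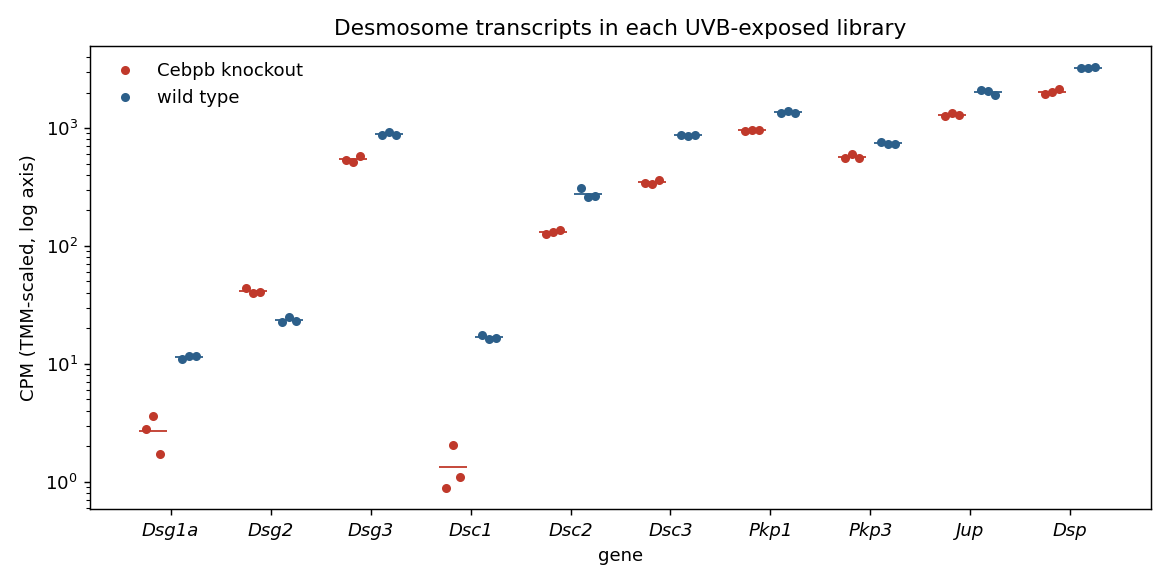
CPM of each desmosome gene on a log axis, with a point for every library (knockout left, wild type right) and a line at the group mean (n = 3 each). Dsg2 is the one gene whose knockout libraries (39.6 to 44.2 CPM) lie above the wild type libraries (22.6 to 24.9 CPM), and Dsc1 and Dsg1a show the widest gaps and the widest spread among knockout libraries.

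The sharpest falls were in the cadherins of the upper layers. Dsc1 (ENSMUSG00000044322), the desmocollin of differentiated epidermis, stood at 0.883, 2.04 and 1.09 CPM in knockout libraries 4, 5 and 6, against 17.5, 16.3 and 16.7 CPM in wild type libraries 1, 2 and 3. Knockout library 5 held about as much Dsc1 as the other 2 knockout libraries together, yet remained far under every wild type library. The fall was 3.64 ± 0.23 log2 units (SE, edgeR adjusted p = 4.58e-08), to 7.95% of the wild type mean, and 96 of the 17659 tested genes had a lower fold change. Without knockout library 5 the log2 fold change was -4.09.

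Dsg1a (ENSMUSG00000069441), 1 of 3 mouse copies of the desmoglein that pemphigus foliaceus antibodies recognise in humans, stood at 2.78, 3.64 and 1.72 CPM in the knockout libraries, against 11.1, 11.6 and 11.6 CPM in the wild type libraries. The groups lay far apart, and knockout library 6 was the lowest of all. Dsg1a fell by 2.07 ± 0.19 log2 units (SE, edgeR adjusted p = 4.40e-07). By the counts as assigned, Dsg1a was not the main Dsg1 copy in these cells. Dsg1b had 8.48, 11.8 and 11.1 CPM in the knockout libraries, against 161, 149 and 161 CPM in the wild type libraries, and fell by 3.91 ± 0.10 log2 units (edgeR adjusted p = 1.51e-13). The copies are near-identical and may share reads, so how the fall divides among them is uncertain. Counted as 1 gene, the copies Dsg1a, Dsg1b and Dsg1c averaged 13.2 ± 2.10 CPM in knockout and 169 ± 7.06 CPM in wild type cells (SD, n = 3 each). That sum fell by 3.67 ± 0.10 log2 units (edgeR adjusted p = 9.63e-14), close to the fall of Dsc1.

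The cadherins of the lower layers had smaller falls. Dsc3 (ENSMUSG00000059898), the desmocollin of basal cells, had 344, 338 and 362 CPM in the knockout libraries, against 870, 859 and 871 CPM in the wild type libraries. Its libraries agreed closely within each genotype, and it fell by 1.32 ± 0.05 log2 units (SE, edgeR adjusted p = 1.41e-11). Dsg3 (ENSMUSG00000056632), the partner desmoglein and the antigen of pemphigus vulgaris, had 538, 511 and 575 CPM in the knockout libraries, against 876, 930.2 and 880.2 CPM in the wild type libraries. Every knockout library was under every wild type library, and the fall was 0.73 ± 0.06 log2 units (edgeR adjusted p = 3.86e-08). Dsc2 (ENSMUSG00000024331), the widely expressed desmocollin, had 125, 130 and 138 CPM in the knockout libraries, against 310, 262 and 263 CPM in the wild type libraries. Wild type library 1 was the highest, and without it the log2 fold change of Dsc2 was -1.01, beside -1.09 with all libraries (edgeR adjusted p = 2.70e-09).

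Dsg2 (ENSMUSG00000044393), the desmoglein of simple epithelia, went the other way. It had 44.2, 39.6 and 40.7 CPM in the knockout libraries, against 22.6, 24.9 and 23.3 CPM in the wild type libraries. All knockout libraries were above all wild type libraries, and Dsg2 rose by 0.82 ± 0.08 log2 units (SE, edgeR adjusted p = 2.73e-07). Over 12 other settings of scaling, filter, test and libraries its log2 fold change stayed between 0.77 and 1.01. Of all tested genes, 13.2% had a higher fold change than Dsg2, so a rise of this size was common in these cells. Falls like those of Dsg3 and the plaque protein genes were common too. A lower fold change was found in 10.9% of tested genes for Dsg3 and in 22.7% for Pkp3, with Dsp, Jup and Pkp1 in between. The falls of the other cadherins were rarer, with 6.25% of tested genes lower than Dsc2, 4.65% lower than Dsc3 and 2.06% lower than Dsg1a.

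The cadherin genes sit side by side. On mouse chromosome 18 the RefSeq annotation of GRCm38.p6 lists 9 protein-coding genes from Dsc3 to Dsg2, and all 9 are desmosomal cadherins, in the order Dsc3, Dsc2, Dsc1, Dsg1c, Dsg1a, Dsg1b, Dsg4, Dsg3 and Dsg2. Their log2 fold changes in that order were -1.32, -1.09, -3.64, -2.56, -2.07, -3.91, -0.88, -0.73 and 0.82. The 4 middle genes, Dsc1 and the Dsg1 copies, had the deepest falls of the stretch, and the only gene called higher was at its end. The Dsg1 copies may share reads, so their fold changes are not independent observations, and a role of position was not tested. Dsg1c was scarce, at 0.0738 ± 0.0239 CPM in knockout and 0.444 ± 0.101 CPM in wild type cells (SD, n = 3 each).

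**Figure D2:**
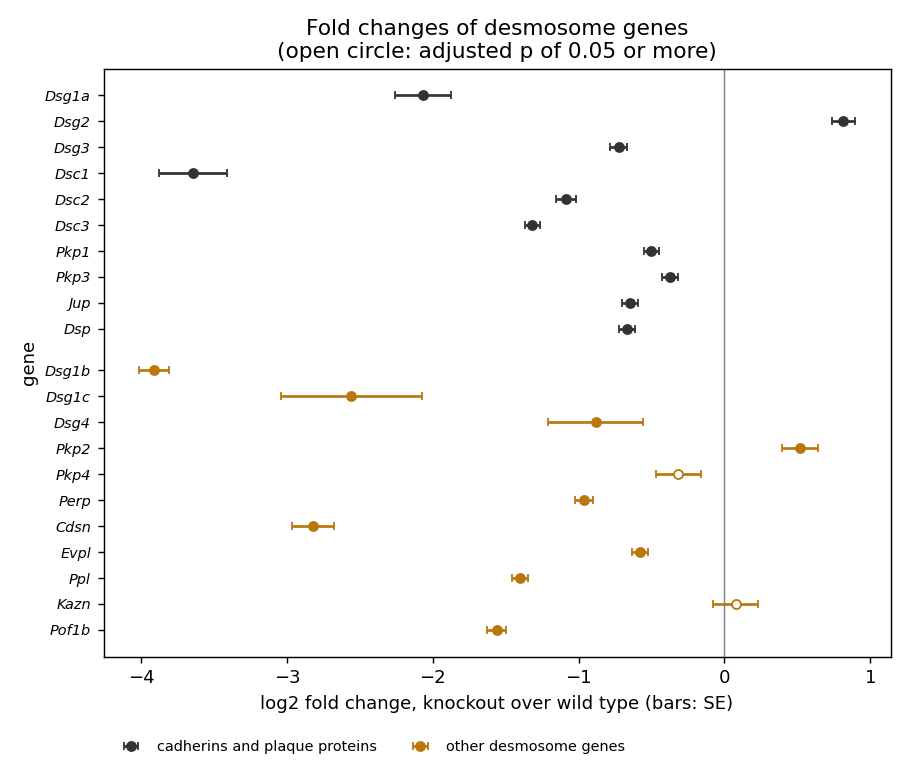
Log2 fold change (knockout over wild type, bars show the SE) of the 10 cadherin and plaque protein genes in black and of 11 other desmosome genes in brown, with open circles for genes that were not called. The Dsg1 copies, Dsc1 and Cdsn lie furthest left, the plaque proteins lie between -0.67 and -0.37, and Dsg2 and Pkp2 are the called genes right of 0.

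The plaque proteins all fell, by between 0.37 and 0.67 log2 units, beside 0.73 for the cadherin Dsg3. Dsp (ENSMUSG00000054889), which encodes the linker to keratin filaments and stood 20th among all tested genes by mean CPM, had 1938, 2037 and 2128 CPM in the knockout libraries, against 3208, 3204 and 3292 CPM in the wild type libraries. Jup (ENSMUSG00000001552), plakoglobin, a relative of beta-catenin, had 1258, 1329 and 1279 CPM in the knockout libraries, against 2091, 2060 and 1899 CPM in the wild type libraries. No libraries of the genotypes overlapped in either gene, and their falls were alike, 0.67 ± 0.05 log2 units for Dsp (SE, edgeR adjusted p = 4.61e-08) and 0.65 ± 0.06 for Jup (edgeR adjusted p = 9.86e-08).

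Pkp1 (ENSMUSG00000026413), the plakophilin most abundant in the upper layers and needed for strong adhesion of skin, had 947, 961 and 970.5 CPM in the knockout libraries, against 1332, 1403 and 1342 CPM in the wild type libraries. No knockout library reached the wild type libraries, and Pkp1 fell by 0.50 ± 0.05 log2 units (SE, edgeR adjusted p = 7.20e-07), beside 3.64 for Dsc1, a cadherin of the same layers. Pkp3 (ENSMUSG00000054065), a plakophilin of all living layers, had 557, 596 and 560 CPM in the knockout libraries, against 756, 731 and 732 CPM in the wild type libraries. It had the smallest change of the 10 genes, a fall of 0.37 ± 0.05 log2 units (edgeR adjusted p = 2.58e-05). With library totals the log2 fold change of Pkp3 was -0.17 (edgeR adjusted p = 0.00729) and that of Pkp1 -0.30, against a median of all genes of 0.21 under that scaling.

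The promoters of Dsp and Jup are shown because a transcription factor was removed in the knockout and because, of the 10 genes, these 2 matched the RefSeq promoter table (GRCm38.p6, an older assembly than the one used for the counts). The 250 bases before each start site are printed 5′ to 3′ on the gene's strand. Capitals mark GC boxes (GGGCGG on either strand) and CCAAT boxes (CCAAT on either strand), and no matches of the motifs searched overlap each other.
Dsp, chr13:38151044-38151293, plus strand: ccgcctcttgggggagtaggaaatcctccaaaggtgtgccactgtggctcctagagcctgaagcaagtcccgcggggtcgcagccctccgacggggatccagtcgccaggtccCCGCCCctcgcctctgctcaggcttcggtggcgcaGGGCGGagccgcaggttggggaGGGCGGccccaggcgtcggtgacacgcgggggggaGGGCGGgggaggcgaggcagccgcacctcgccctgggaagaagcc
Jup, chr11:100397791-100398040, minus strand: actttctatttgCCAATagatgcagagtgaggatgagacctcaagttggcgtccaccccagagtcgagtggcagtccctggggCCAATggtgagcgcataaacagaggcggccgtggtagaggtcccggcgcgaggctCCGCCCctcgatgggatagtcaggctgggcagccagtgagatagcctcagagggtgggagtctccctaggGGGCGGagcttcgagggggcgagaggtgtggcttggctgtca

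Dsp had 4 GC boxes and no CCAAT box in this window, and Jup had 2 of each. Both windows were rich in G and C, at 72.4% for Dsp and 62% for Jup, beside a median of 52.4% over 32851 promoter windows. GC boxes occurred in 32.7% of those windows and CCAAT boxes in 33.8%. The letters TTNNGNAA, a loose form of the C/EBP consensus searched on both strands, were in neither window and in 36.8% of all windows, and AACCGG, the core of the Grainyhead consensus, was in neither and in 5.62% of all. A match or its lack describes these letters in this window and nothing about binding.

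Ratios between isoforms within a library do not depend on how libraries are scaled. Per 1000 counts of Dsc3, Dsc1 had 2.57, 6.03 and 3.02 counts in the knockout libraries, against 20.1, 19.0 and 19.2 in the wild type libraries. The log2 ratio was lower by 2.43 in knockout cells, at -8.12 ± 0.65 against -5.69 ± 0.04 in wild type cells (SD, n = 3 each; two-sided exact permutation test, p = 0.10). Per 1000 counts of Dsg3, Dsg1a had 5.17, 7.13 and 2.99 counts in the knockout libraries, against 12.7, 12.5 and 13.2 in the wild type libraries. That log2 ratio differed by -1.41 between genotypes (two-sided exact permutation p = 0.10), and by -2.96 with the 3 Dsg1 copies summed. In both pairs, the share of the upper-layer cadherin was lower in each of the 3 knockout libraries than in any wild type library.

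The mix of lower-layer isoforms differed between the libraries of the genotypes as well. Per 1000 counts of Dsg3, Dsg2 had 82.2, 77.6 and 70.8 counts in the knockout libraries, against 25.8, 26.7 and 26.4 in the wild type libraries, a difference of 1.54 in log2 ratio (two-sided exact permutation p = 0.10). For Dsc2 per 1000 counts of Dsc3 the values were 364, 385 and 380 in the knockout libraries, against 356, 305 and 302 in the wild type libraries, a difference of 0.23 (two-sided exact permutation p = 0.10). The lowest knockout library was only just above the highest wild type library.

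The ratios of the plaque pairs lay closer together. Pkp1 over Pkp3 differed by -0.13 in log2 ratio, with 0.75 ± 0.05 in knockout and 0.88 ± 0.06 in wild type cells (SD, n = 3 each; two-sided exact permutation p = 0.10). Dsp over Jup was 0.66 ± 0.07 in knockout and 0.68 ± 0.10 in wild type cells (SD, n = 3 each; two-sided exact permutation p = 0.60), and the libraries overlapped. Without wild type library 3 the difference between these 2 means changed sign, to 0.03. With 3 libraries against 3 the smallest p is 0.10, so no ratio could pass 0.05. Adjusted over the 6 pairs, the exact permutation p was 0.12 for 5 of them and 0.60 for Dsp over Jup.

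**Figure D3:**
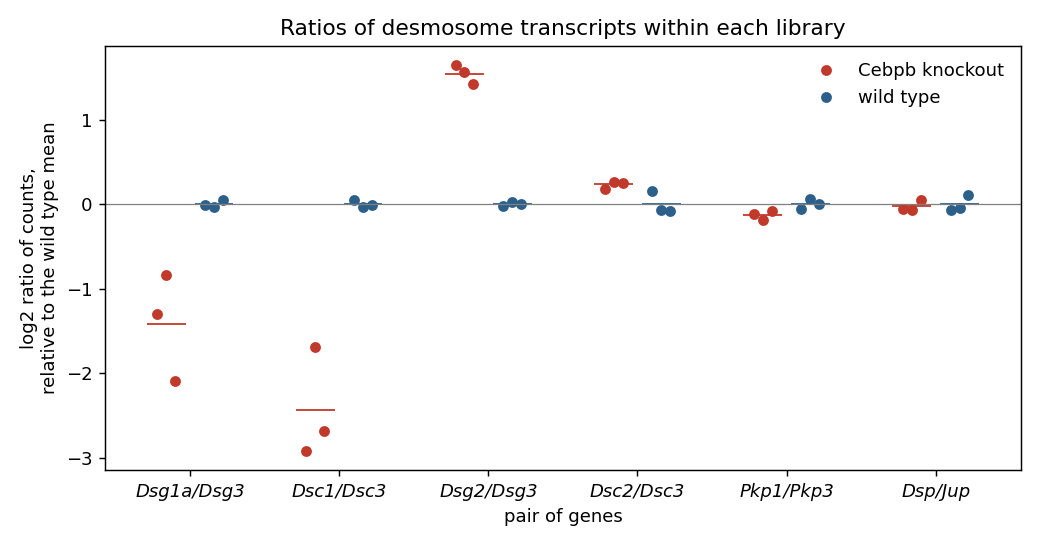
Log2 ratio of the counts of 2 desmosome genes in each library, relative to the wild type mean of that pair (knockout left, wild type right, line at the group mean, n = 3 each). Dsg1a/Dsg3 and Dsc1/Dsc3 lie 1.41 and 2.43 lower and Dsg2/Dsg3 1.54 higher in knockout cells, and the Dsp/Jup ratios overlap.

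Per kb of exon, as the counts of genes must be to set levels side by side, plaque transcripts led cadherin transcripts in both genotypes. In knockout cells Dsp averaged 211 ± 9.82 CPM per kb, Jup 200.2 ± 5.65, Pkp1 191 ± 2.34 and Pkp3 158 ± 6.06 (SD, n = 3), and the libraries of Dsp and Jup overlapped. Dsg3 followed at 77.6 ± 4.64, Dsc3 at 64.4 ± 2.29, Dsc2 at 24.8 ± 1.20 and Dsg2 at 5.02 ± 0.29 CPM per kb. Dsg1a (0.478 ± 0.169) and Dsc1 (0.265 ± 0.122) were last and overlapped. In wild type cells the order was Dsp (335 ± 5.17 CPM per kb), Jup (313, between 295 and 325 over its libraries), Pkp1 (271 ± 7.66), Pkp3 (204 ± 3.88), Dsc3 (160 ± 1.17), Dsg3 (128 ± 4.33), Dsc2 (52.7 ± 5.18), Dsc1 (3.34 ± 0.12), Dsg2 (2.85 ± 0.14) and Dsg1a (2.01 ± 0.05), and no neighbours overlapped. Dsg3 stood above Dsc3 in knockout cells and below it in wild type cells, and Dsg2 above Dsc1 in knockout cells and below it in wild type cells. The lengths join all annotated exons of a gene, some of which these cells may not use.

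All desmogleins summed to 85.9 ± 4.38 CPM per kb in knockout and 173 ± 2.76 CPM per kb in wild type cells, and all desmocollins to 89.5 ± 3.28 CPM per kb in knockout and 216 ± 5.93 CPM per kb in wild type cells (SD, n = 3 each). Of the desmoglein counts per kb, Dsg3 made up 90.3% ± 0.81 in knockout and 74.1% ± 1.32 in wild type cells. Dsg1b made up 3.08% ± 0.56 in knockout and 22.9% ± 1.40 in wild type cells, and Dsg2 made up 5.85% ± 0.42 in knockout and 1.65% ± 0.05 in wild type cells. By these counts Dsg1b was the second desmoglein of wild type cells, while Dsg2 took that place in knockout cells. The split among the Dsg1 copies is uncertain, since they may share reads. Among desmocollins Dsc3 held 72.0% ± 0.68 in knockout and 74.1% ± 1.72 in wild type cells, and Dsc1 held 0.298% ± 0.142 in knockout and 1.54% ± 0.01 in wild type cells.

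**Figure D4:**
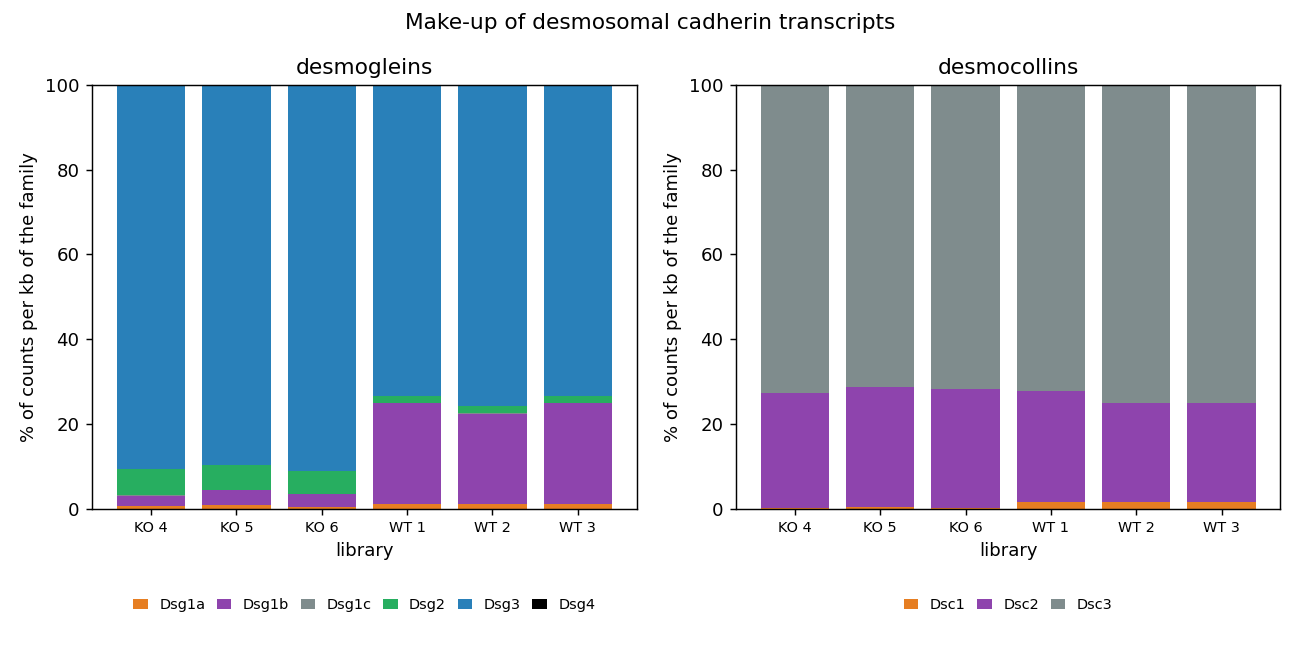
Share of each gene in the counts per kb of all desmogleins (left) and all desmocollins (right), with a bar for each library, knockout before wild type. Dsg1b takes 2.51% to 3.62% of desmoglein counts per kb in the knockout libraries, against 21.3% to 23.7% in the wild type libraries, and Dsc3 takes 71.4% to 72.7% of desmocollin counts per kb in the knockout libraries, against 72.1% to 75.2% in the wild type libraries.

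The wider desmosome list held 11 further genes, with 8 falls, 1 rise and 2 genes not called (median log2 fold change -0.97). Over all genes tested, 23.7% were called lower and 24.8% higher. Cdsn, corneodesmosin, a glue protein of the outermost desmosomes, had 127, 160 and 108 CPM in the knockout libraries, against 1056, 887 and 855 CPM in the wild type libraries, and fell by 2.82 ± 0.14 log2 units (SE, edgeR adjusted p = 2.69e-07). Ppl and Evpl, the plakins periplakin and envoplakin that join desmosomes to the cornified envelope, fell by 1.40 and 0.58. Perp, a membrane protein that desmosomes need and a target of p63, fell to 1513 ± 86.1 CPM in knockout cells, against 2955 ± 173 CPM in wild type cells (SD, n = 3 each). Pof1b fell by 1.56, and Dsg1b and Dsg1c are described above. Dsg4, the desmoglein of hair and uppermost epidermis, was scarce, at 0.628 ± 0.292 CPM in knockout and 1.17 ± 0.22 CPM in wild type cells. Its call (log2 fold change -0.88, edgeR adjusted p = 0.0334) was lost without knockout library 6 (-0.56), without wild type library 2 (-0.75) or 3 (-0.88), and with library totals (-0.68).

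Pkp2, the plakophilin of heart and simple epithelia, rose. It had 11.3, 10.9 and 9.67 CPM in the knockout libraries, against 6.34, 8.46 and 7.44 CPM in the wild type libraries, and gained 0.52 ± 0.13 log2 units (SE, edgeR adjusted p = 0.00264). Pkp4, a plakophilin relative found at desmosomes and adherens junctions, was not called (-0.32 ± 0.16, edgeR adjusted p = 0.111), but was without knockout library 6 (-0.51, edgeR adjusted p = 0.0155). Kazn, a partner of periplakin, was not called (0.08 ± 0.15, edgeR adjusted p = 0.713). Its sign changed without knockout library 4 (-0.05) or wild type library 1 (-0.08).

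Adherens junction genes, the other cadherin system of these cells, had 3 rises, 3 falls and 6 members without a call among 12 genes. That is close to the share over all genes tested, of which 24.8% were called higher and 23.7% lower, and the median log2 fold change of the 12 was -0.03. Cdh1, E-cadherin, which is not among the genes chosen by rule and is named after its values were seen, had 665 ± 28.5 CPM in knockout and 702 ± 24.9 CPM in wild type cells (SD, n = 3 each) and was not called (-0.08 ± 0.06, edgeR adjusted p = 0.260). The LIM protein gene Ajuba fell by 0.61 and alpha-catenin, Ctnna1, by 0.38, while the adhesion receptor genes Nectin2 and Nectin3 rose by 0.52 and 0.89. With library totals 6 of the 12 rose and 2 fell.

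Layer markers divided in the same samples. All 12 suprabasal markers were called lower (median log2 fold change -2.19), and 10 of the 12 under library totals. The share called lower over all genes tested was 23.7%, and 13.9% under library totals. Tgm1 and Tgm3, transglutaminases that cross-link the cornified envelope, fell by 2.68 and 6.55, and Lypd3, a surface protein of the upper layers, fell by 1.22. Krt1, the keratin of the first differentiated layers, stood at 4.80 ± 1.45 CPM in knockout and 18.7 ± 3.11 CPM in wild type cells (SD, n = 3 each), and its partner Krt10 at 4.25 ± 0.19 CPM in knockout and 6.13 ± 1.31 CPM in wild type cells. Krt10 was called lower (-0.53, edgeR adjusted p = 0.00933), but not with library totals (-0.33) or without wild type library 3 (-0.35). Of 10 basal markers 5 fell and 5 rose, beside 23.7% called lower and 24.8% called higher over all genes tested. The keratin genes Krt5 and Krt14 were lower by 0.78 and 0.93. Without knockout library 6, or without wild type library 3, basal markers had 3 rises.

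Transcription factor genes that act on desmosomal genes or on epithelial junctions were mostly lower. Of 14 listed, 12 were tested, of which 9 fell, 2 rose and 1 was not called. The list mixes factors of unlike action, so these counts do not say how desmosomal genes would be affected. Zeb2 (-1.25) and Snai2 (-0.66), named after their values were seen, are among the falls. Among all genes tested, 23.7% were called lower and 24.8% higher. Grhl1, a Grainyhead factor that binds the Dsg1 promoter in mice, had 41.2 ± 4.02 CPM in knockout and 270.4 ± 3.12 CPM in wild type cells (SD, n = 3 each) and fell by 2.72 ± 0.07 log2 units (SE, edgeR adjusted p = 9.65e-14). Ovol1, a repressor in differentiating epidermis, fell by 2.50, Trp63, the p63 gene of stratified epithelia, by 1.95, and Grhl3, which acts in barrier formation, by 1.12. The untested genes were Zeb1, with 0 to 15 counts in the knockout and 0 to 6 in the wild type libraries, and Twist1, with 3 to 13 counts in the knockout and 6 to 12 in the wild type libraries. The 2 rises were those of Grhl2 and Ovol2, named after their values were seen. For Grhl2 the libraries of the genotypes overlapped (edgeR adjusted p = 0.042). The list had 1 rise without knockout library 4 or 5 or without wild type library 1 or 2, and 0 without wild type library 3 by edgeR (1 at an unadjusted p under 0.05).

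Of 12 genes for enzymes that cut or modify desmosomal proteins and for an inhibitor of such enzymes, 11 were tested, of which 6 fell, 1 rose and 4 were not called. The shares over all genes tested were 23.7% lower and 24.8% higher. The kallikrein genes Klk5 and Klk6, whose products are skin peptidases, fell by 2.95 and 2.00, and Spink5, which encodes LEKTI, the inhibitor of skin kallikreins, by 1.72. Mmp9, the gelatinase gene, had 658 ± 66.7 CPM in knockout and 42.0 ± 3.83 CPM in wild type cells (SD, n = 3 each) and rose by 3.97 ± 0.09 log2 units (SE, edgeR adjusted p = 1.31e-14). It was the 1 rise, beside 2 rises without knockout library 5 and 3 with library totals. The untested gene was Klk14, with 0 to 4 counts in the knockout and 1 to 28 in the wild type libraries.

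**Figure D5:**
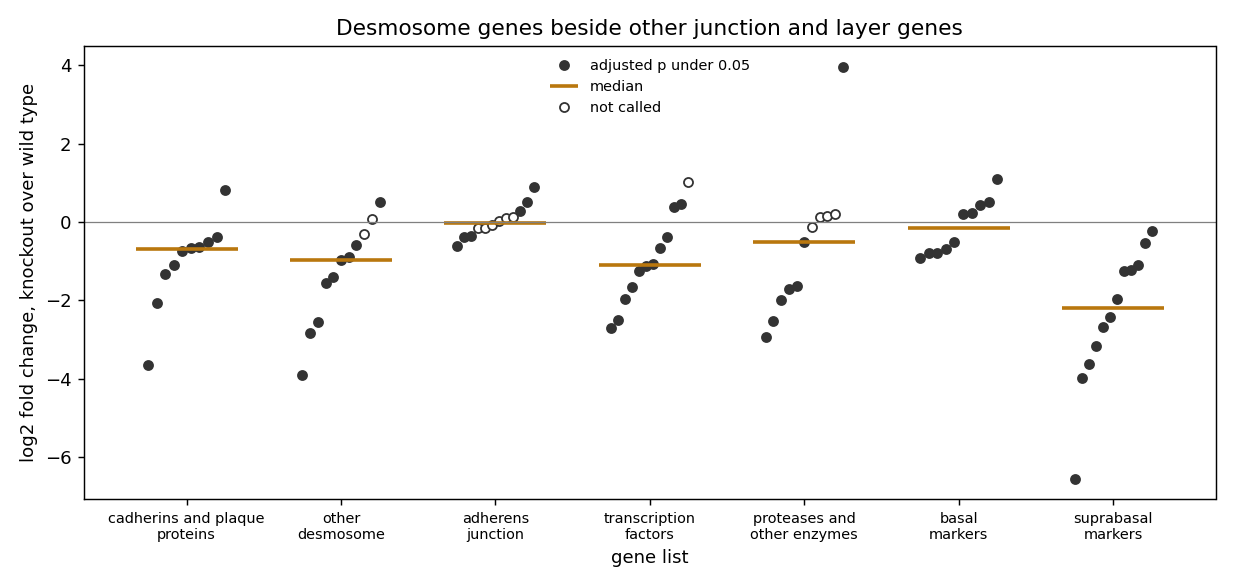
Log2 fold change (knockout over wild type) of every tested gene in 7 lists, with filled points for called genes, open points for genes not called and a bar at the median of each list. The desmosome cadherins and plaque proteins (median -0.70) lie between the adherens junction genes (-0.03) and the suprabasal markers (-2.19). So do the other desmosome genes (-0.97), transcription factors (-1.10), enzymes (-0.51) and basal markers (-0.14).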

How the data were processed

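Total RNA of 6 libraries was read in pairs of 150 bp, according to the labels' protocols. The authors deposited 1 table of raw, unscaled counts per gene. The submitters' processing notes name the builds mm39 and GRCm39 and the tools FastQC, STAR, HTSeq and DESeq2. Their versions, the annotation release and any strand setting were not given in the sources used here. Whether reads of overlapping genes on opposite strands were told apart is therefore not known. Symbols came from GENCODE M21 by identifier (52083 of 55416 matched), as did the exon lengths behind CPM per kb.

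Genotype was tested with edgeR 4.0.16 (R 4.3.3): filterByExpr at 10 counts, TMM, robust quasi-likelihood fit, with calls at an adjusted p (Benjamini-Hochberg) under 0.05. The SE is the log2 fold change over the square root of F. CPM values are TMM-scaled, with SDs over 3 libraries. No label gives a batch. Isoform ratios were tested by exact permutation over 20 assignments. The fits were tested on simulated counts.

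The genes and lists were chosen with earlier results of these data known. Genes named are the 10 and the other desmosome list in full, the 4 (transcription factors, enzymes, adherens junction) or 3 (layer markers) with the smallest p of each list, and Grhl1, Trp63, Krt5, Krt14, Krt1, Krt10 and Cebpb. A gene that this rule takes is not reported here. Alternatives were DESeq2 size factors, library totals, no filter, a mean of at least 1 CPM, DESeq2 1.42.0, limma voom (limma 3.58.1), leaving out each library, summing the Dsg1 copies, and 0.5 added to both counts of a ratio. Counting floors cover counting error only.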

Additional observations from a re-analysis of the deposited data

How the results depend on the processing

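All 10 cadherin and plaque protein genes kept their direction and call under each of 12 alternatives of scaling, filter, test and left-out library, the largest adjusted p being 0.00729 for Pkp3 with library totals. Library totals lowered the count of all genes called lower to 2452, and raised the rises among adherens junction genes to 6 and among enzyme genes to 3, since they move every fold change up. Leaving out each library in turn gave 0 to 2 rises among transcription factor genes, 1 to 2 among enzyme genes, 3 to 5 among basal markers, and -0.063 to 0.031 for the Dsp over Jup difference (0.031 without wild type replicate 3). Kazn, which was not called, ranged from -0.083 (without wild type replicate 1) to 0.24 (without wild type replicate 2). The cause was not tested where libraries were left out. No paired analysis was possible because the knockout libraries are numbered 4 to 6 and the wild type libraries 1 to 3, so the groups share no replicate number. Counts of under 50 per library, as for Dsg1c in knockout cells, limit the precision of its fold.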
